A study of Mus musculus with 36 samples.

Results

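BV-2 cells, an immortalized mouse microglial line of wild-type genotype, were exposed for 4 h to bacterial lipopolysaccharide (LPS) alone or to LPS with monomethyl fumarate (MMF). The comparison described here takes every gene in the 3 libraries of LPS with MMF against the 3 libraries of LPS alone, which are 6 of the 36 RNA-seq libraries in the series. LPS was given at 600 ng/ml to cells moved to low serum, MMF was added at 30 µM from a stock in dimethyl sulfoxide (DMSO), and vehicle made up 0.2% of the medium. The labels do not say which vehicle accompanied LPS alone, so an effect of DMSO on this comparison cannot be told apart from that of MMF. Other groups of 3 libraries are used for context, namely DMSO alone, ethanol (EtOH) alone, LPS with 30 µM dimethyl fumarate (DMF) and LPS with 6 µM cannabidiol (CBD) at 4 h, and LPS and LPS with MMF at 24 h. All libraries came from the same line. The labels state that the experiment was done 3 times without saying which libraries came from which culture, so each p-value measures the spread between these libraries, which may be technical.

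DMF is the dimethyl ester of fumaric acid, and MMF, which lacks a methyl group that DMF has, is the product into which DMF is hydrolysed in the body. Fumarates react with cysteines of Keap1, the adaptor that sends the transcription factor Nrf2 to degradation. Nrf2 that escapes Keap1 pairs with small Maf proteins on antioxidant response elements and raises genes for glutathione synthesis, thioredoxin reduction, heme breakdown and NADPH supply. MMF is also an agonist of Hcar2, a receptor for hydroxycarboxylic acids on myeloid cells. LPS acts on microglia through Tlr4, after which NF-kB and interferon regulatory factors raise cytokine, chemokine and interferon response genes.

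Depth ran from 16.1 M to 17.7 M reads assigned to genes per library, with 14615 to 14871 genes detected in each. Of 15 microglia and macrophage markers, 13 had a mean normalized count (reads divided by the size factor of the library) of at least 10, led by Csf1r, while Sall1 was at 0 in every library and Gpr34 had a mean of 0.674. The summed level of that list was 37238 to 43701 in the LPS libraries and 33762 to 37054 in those with MMF, so the groups did not overlap. Markers of astrocytes, neurons, oligodendrocytes and fibroblasts gave sums of 12.2 to 20.4, 91.1 to 169, 1008 to 1109 and 0.937 to 1.98. The part of the lower marker sum in the results below was not tested. LPS replicate 2 stood apart from the other LPS libraries, with a chi-square per degree of freedom of 31.0 against replicate 1, where replicates 1 and 3 gave 5.46. On the first principal component of the 1000 most variable genes, which carried 37.0% of the variance, both libraries numbered 2 were highest. The second component, with 24.1%, held the 3 LPS libraries at -8.82 to -7.72 and the 3 MMF libraries at 2.31 to 12.6. The count of genes that passed, and several genes and lists below, are therefore given both with LPS replicate 2 and without it. The fits without it keep MMF replicate 2, so a shift shared by both libraries numbered 2 would stay in the MMF group only. Such a shift cannot be told apart from an effect of MMF in those fits.

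With MMF a small group of antioxidant and heme-handling genes was higher, and the lower genes named here were Fos, Slc28a2, Gpr174 and Plin2. The test was limma on log2 of the normalized count plus 1, for genes with a normalized count of at least 10 in at least 3 of the 6 libraries, which 11431 of the 17161 genes listed met. Of 11431 genes tested, 14 passed at a limma adjusted p below 0.05, which is 0.122% of those tested. Of these, 9 were higher with MMF (0.0787%) and 5 were lower (0.0437%). All 14 had every MMF library beyond every LPS library, which held for 13.5% of the genes tested. The mean normalized count with MMF was 1.5 to 2.32 times that with LPS alone in the 9 higher genes, and 0.513 to 0.693 times in the 4 lower genes named here. An unadjusted p below 0.05 was found for 7.37% of the genes tested, 3.67% on the higher and 3.71% on the lower side. For scale, the quartiles of the log2 fold change over all genes tested were -0.09 and 0.10.

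**Figure D1:**
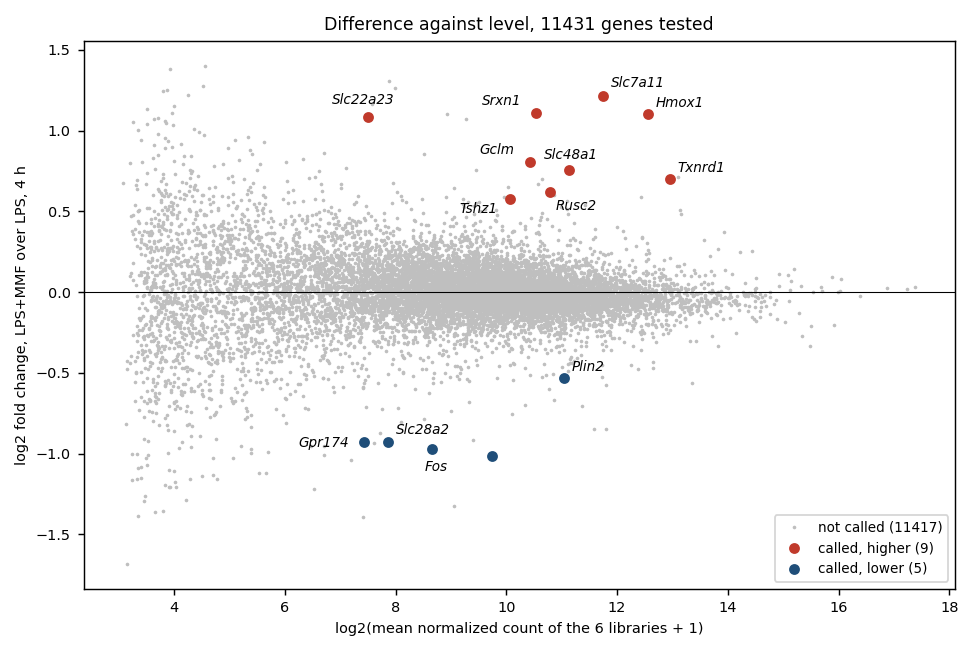
Log2 fold change of LPS with MMF over LPS alone at 4 h (vertical) against the log2 mean normalized count plus 1 of the 6 libraries (horizontal), with 1 point per gene tested; red and blue mark the 9 higher and 5 lower genes that passed at an adjusted p below 0.05, and 13 of them are named. Most genes lie close to 0, Slc7a11 is highest among those that passed at 1.21, and many genes of low count lie further from 0 without passing.

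How many genes passed depended on which library entered the fit. Leaving out LPS replicate 2 gave 63 genes, while leaving out LPS replicate 1 gave 9, LPS replicate 3 gave 1, and MMF replicates 1, 2 and 3 gave 1, 3 and 2. Slc7a11 passed in each of these 6 fits, Srxn1 in 4, and Hmox1, Gclm, Slc48a1 and Txnrd1 in 2. The other 7 named genes passed in 1 of the 6, that without LPS replicate 2. Direction held for the 13 named genes in all 6 fits, and the fold changes moved little, for example 1.14 to 1.30 for Slc7a11 and -1.06 to -0.82 for Fos on the log2 scale.

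The 250 bases before the transcription start of the canonical transcript were read from GRCm39 for the called genes and searched on both strands for TGACNNNGC, the core of the antioxidant response element. Of the 9 higher genes, 3 held a match (Slc22a23, Gclm and Txnrd1) and 6 did not, and none of the 5 lower genes held one. Among 11367 promoters of tested protein-coding genes of the same length, 10.8% held a match. The sequences with a match are shown 5′ to 3′ on the strand of the gene, since they are the promoters of genes higher with MMF that carry these letters, with the match in capitals. They lie at chr13:34529658-34529907 (minus strand), chr3:122038876-122039125 (plus strand) and chr10:82694763-82695012 (plus strand).
Slc22a23: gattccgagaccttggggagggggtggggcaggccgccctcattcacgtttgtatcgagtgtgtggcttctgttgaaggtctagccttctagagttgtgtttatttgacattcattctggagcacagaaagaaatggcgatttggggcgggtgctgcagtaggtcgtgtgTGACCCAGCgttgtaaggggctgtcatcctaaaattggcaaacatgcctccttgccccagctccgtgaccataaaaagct
Gclm: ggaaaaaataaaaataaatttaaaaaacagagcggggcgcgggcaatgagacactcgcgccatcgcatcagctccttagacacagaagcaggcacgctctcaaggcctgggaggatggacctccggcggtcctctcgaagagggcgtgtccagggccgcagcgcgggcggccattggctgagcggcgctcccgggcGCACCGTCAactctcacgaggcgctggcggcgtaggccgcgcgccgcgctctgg
Txnrd1: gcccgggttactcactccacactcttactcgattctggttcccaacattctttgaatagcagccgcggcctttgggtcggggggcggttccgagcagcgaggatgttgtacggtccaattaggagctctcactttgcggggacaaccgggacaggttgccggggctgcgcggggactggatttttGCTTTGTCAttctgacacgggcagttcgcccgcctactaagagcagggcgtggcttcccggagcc
The match began at base -80 from the start in Slc22a23, at -54 in Gclm and at -65 in Txnrd1. In Gclm and Txnrd1 the motif reads on the strand opposite to the gene. A match is a description of letters and not a shown binding site, and the absence of a match says only that these letters are not in this window.

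Cystine import held the largest rise among the genes that passed. Slc7a11 (chr3:49846975-50398063), the light chain of the cystine-glutamate exchanger that brings in the cysteine used for glutathione, measured 2316, 2041 and 1870.3 normalized counts in the LPS libraries. With MMF it measured 4668, 5337 and 4431. Every MMF library was far above every LPS library, a log2 fold change of 1.21 ± 0.10 (SE, n = 3 per group, limma adjusted p = 0.00428). Gclm (chr3:122039206-122064381) encodes the modifier subunit of glutamate-cysteine ligase, which carries out the first step of glutathione synthesis. Its counts were 1099.9, 915 and 968 with LPS and 1926, 1672 and 1629 with MMF. The groups were well apart, with a log2 fold change of 0.81 ± 0.10 (limma adjusted p = 0.0205).

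The list of glutathione and cystine genes had 11 members tested, of which 10 had a fold change above 0. In limma 2 passed as higher and 0 as lower, against 0.0787% and 0.0437% of all genes tested. At an unadjusted p below 0.05 the list had 7 higher and 0 lower genes, and DESeq2 called 4, all higher. Its median log2 fold change was 0.39 and 0.37 without LPS replicate 2, where that of all genes tested was within 0.01 of 0. In 8 of the 11 every MMF library was above every LPS library, against 6.48% of all genes tested. The list was chosen with earlier results of these data known and holds Slc7a11 and Gclm, so this share only describes it. Gclc, the catalytic subunit of glutamate-cysteine ligase, measured 2381, 1973 and 2324 with LPS and 3363, 3578 and 2796 with MMF, and its fold change of 0.54 ± 0.11 did not pass (adjusted p = 0.236). Gsr, which reduces oxidized glutathione, gave 0.39 ± 0.08 (adjusted p = 0.245). Slc3a2, the heavy chain that partners Slc7a11, gave 0.30 ± 0.07 (adjusted p = 0.366). None of these 3 had overlapping groups, yet with 3 libraries each they stayed outside the adjusted threshold. The glutathione peroxidases Gpx1 and Gpx4, which use glutathione to reduce peroxides, were at 0.03 ± 0.15 and -0.00 ± 0.11, and Gss, the enzyme of the last step of glutathione synthesis, was at 0.12 ± 0.09.

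Hmox1 and Slc48a1, genes of heme breakdown and heme transport, were the members of the heme and iron list that passed, both higher with MMF. Hmox1 (chr8:75820249-75827217), the inducible heme oxygenase that opens the heme ring, measured 3465, 4593 and 3538 in the LPS libraries. With MMF the counts were 7770.2, 9312 and 7663. The groups lay far apart, LPS replicate 2 being the highest of its group, with a log2 fold change of 1.10 ± 0.12 (limma adjusted p = 0.0128). Slc48a1 (chr15:97676401-97690573), a transporter that moves heme out of lysosomes, measured 1786, 1670.1 and 1539.6 with LPS and 2831, 2804 and 2778 with MMF. The MMF libraries were nearly alike, and the log2 fold change was 0.75 ± 0.08 (limma adjusted p = 0.00958). Slc48a1 borders Hdac7, a histone deacetylase gene on the opposite strand. The deposited spans share 29 bases, but in the GENCODE vM39 annotation 2396 of the 2920 exonic bases of Slc48a1 are also exonic in Hdac7. Whether strand was used in counting is not given in the sources used here, so reads from bases that both genes share cannot be told apart. How far such reads entered the counts of Slc48a1 was not tested. Genes annotated on the opposite strand also share up to 869 exonic bases with Gclm, 242 with Srxn1, 219 with Tshz1 and 70 with Rusc2, and a transcribed pseudogene on the same strand shares 492 with Gclm. Hdac7 itself measured 155, 673 and 206 with LPS and 430.0, 859 and 579.9 with MMF (adjusted p = 0.667, and 0.0154 without LPS replicate 2), a gene named after its values were seen.

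Of 12 heme and iron genes tested, 2 passed as higher and 0 as lower in limma, against 0.0787% and 0.0437% of all genes tested. At an unadjusted p below 0.05, 5 were higher and 2 lower, and DESeq2 called 4, all higher. The median of the list was 0.21. Slc40a1, ferroportin, the exporter of iron from cells, had the largest fold change of the list but did not pass in limma. Its counts were 204, 131 and 117 with LPS and 408, 397 and 269 with MMF, and its log2 fold change was 1.26 ± 0.23 (limma adjusted p = 0.110). It passed in DESeq2 (adjusted p = 2.39e-05) and in limma without LPS replicate 1 (adjusted p = 0.0199). Blvrb, a biliverdin and flavin reductase, gave 0.56 ± 0.09 (adjusted p = 0.0885) with groups apart. The ferritin chains Fth1 and Ftl1, which store iron, gave 0.09 ± 0.14 and 0.25 ± 0.15 with overlapping groups, and both have near-identical copies in the genome between which counting could split reads. Tfrc, the transferrin receptor that takes in iron, lay on the other side at -0.43 ± 0.16 (adjusted p = 0.591), with 9180.4, 5664 and 7469 in LPS libraries and 6282, 4969 and 5055 in MMF libraries. Members of the list thus lay on both sides of 0, and Blvra, the main biliverdin reductase, was also below it at -0.24 ± 0.09.

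In the thioredoxin system 2 of 11 genes tested passed as higher and 0 as lower in limma, against 0.0787% and 0.0437% of all genes tested. At an unadjusted p below 0.05, 4 were higher and 0 lower, and DESeq2 called 2, both higher. Srxn1 (chr2:151947436-151953296), sulfiredoxin, which repairs overoxidized peroxiredoxins, measured 1008, 935 and 870.1 with LPS and 2013, 2334 and 1760.3 with MMF. The lowest MMF library was well above the highest LPS library, and the log2 fold change was 1.11 ± 0.11 (limma adjusted p = 0.00958). Txnrd1 (chr10:82669785-82733546), the cytosolic thioredoxin reductase, measured 6622, 5635 and 5913 with LPS and 10236, 10195 and 9011 with MMF, a log2 fold change of 0.70 ± 0.09 (limma adjusted p = 0.0268). The other 9 members lay between -0.14 ± 0.07 for Txnip, an inhibitor of thioredoxin, and 0.26 ± 0.11 for Sesn2, a stress-induced sestrin, and the median of the list was 0.03. Prdx1, a peroxiredoxin that removes hydrogen peroxide, had 12067, 12679 and 11373 in the LPS libraries and 13395, 14441 and 14317 in the MMF libraries. These groups did not overlap, but the difference of 0.22 ± 0.08 did not pass (adjusted p = 0.580).

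No member of the NADPH supply list (7 tested), the detoxification and export list (10 tested) or the list of Nrf2 and its regulators (9 tested) passed in limma. At an unadjusted p below 0.05 these lists had 1, 2 and 5 genes above 0 and 1, 0 and 1 below, and DESeq2 called 0, 1 and 2 genes. Their medians were 0.12, 0.19 and 0.24. Pgd, 6-phosphogluconate dehydrogenase of the NADPH-yielding pentose phosphate pathway, had 13936, 14465 and 12371 with LPS and 18355, 19216 and 15350.1 with MMF (0.37 ± 0.11, adjusted p = 0.473). Abcc1, a pump that exports glutathione conjugates, had 4635, 4499 and 4066 and 6106, 7744 and 6132 (0.59 ± 0.11, adjusted p = 0.110, and 0.0464 without LPS replicate 2). In both genes every MMF library was above every LPS library. Nqo1, a quinone reductase often used as a readout of Nrf2, was near the floor in this line with 20.4, 10.2 and 12.3 with LPS and 13.9, 9.96 and 15.9 with MMF. Its difference of -0.07 ± 0.37 could not be read at such counts. Mgst1, a microsomal glutathione transferase, had the largest difference of the detoxification list at 0.75 ± 0.38 (adjusted p = 0.714).

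Among the regulators, Osgin1, an oxidative stress induced growth inhibitor, had the largest difference, with 136, 68.1 and 100.3 with LPS and 225, 178 and 117 with MMF (0.77 ± 0.28, adjusted p = 0.584). Its groups overlapped. The transcript of Nrf2 itself (Nfe2l2) was lower with MMF in every library. It measured 2916, 2567 and 2679 with LPS and 2204, 1955 and 1926 with MMF, a log2 fold change of -0.42 ± 0.08 that did not pass (adjusted p = 0.216) and that DESeq2 called (DESeq2 adjusted p = 0.010). Keap1 gave 0.04 ± 0.11. Bach1, a repressor that competes with Nrf2 at heme oxygenase and related genes, had 512, 717 and 591 with LPS and 758, 976 and 838 with MMF (0.50 ± 0.14, adjusted p = 0.419). Maff, a small Maf partner, gave 0.58 ± 0.19 (adjusted p = 0.532) and passed without LPS replicate 2 (0.82, adjusted p = 0.0198). Sqstm1, the autophagy receptor p62 that binds Keap1, gave 0.32 ± 0.08 (adjusted p = 0.391).

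The 3 remaining higher genes belong to none of the lists. Slc22a23 (chr13:34363141-34529165), an orphan member of the organic ion transporter family, measured 118, 124 and 103 with LPS and 243, 284 and 213 with MMF (1.08 ± 0.15 on the log2 scale, limma adjusted p = 0.0291). Rusc2 (chr4:43381979-43427088), a protein with RUN and SH3 domains that binds a Rab GTPase, measured 1453, 1357 and 1383 and 2144, 1982 and 2336 (0.62 ± 0.08, limma adjusted p = 0.0268). Tshz1, a zinc finger homeobox factor of the teashirt family, measured 842, 878 and 849.7 and 1253, 1393 and 1202 (0.58 ± 0.08, limma adjusted p = 0.0415). In each of them the LPS libraries were tightly grouped and every MMF library was higher.

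Fos (chr12:85520664-85524047), a subunit of the AP-1 transcription factor and an immediate early gene, fell. Its counts were 476, 559 and 556 in the LPS libraries and 304, 296 and 216 in those with MMF, with no overlap. The log2 fold change was -0.97 ± 0.14 (limma adjusted p = 0.0485). Of 17 immediate early genes tested, Fos included, 0 passed as higher and 1 as lower in limma, against 0.0787% and 0.0437% of all genes tested. At an unadjusted p below 0.05, 1 was higher and 1 lower, and DESeq2 called 1, which was lower. The median of the list was 0.05. Fosb, the nearest relative of Fos on the list, lay in the opposite direction with 27.5, 36.6 and 34.8 with LPS and 51.5, 61.8 and 79.6 with MMF (0.93 ± 0.23, adjusted p = 0.384). Its counts were low, but every MMF library was above every LPS library. Jun, the usual partner of Fos, gave -0.16 ± 0.09, and Junb, Jund and Atf3, which also form AP-1 dimers, gave -0.01 ± 0.15, 0.33 ± 0.16 and 0.11 ± 0.16. Ier3, a stress gene of the list, gave 0.34 ± 0.15 and passed without LPS replicate 2 (0.54, adjusted p = 0.0300).

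Slc28a2 (chr2:122256958-122291618), a concentrative transporter of purine nucleosides, fell from 316, 276 and 327 with LPS to 161, 166 and 153 with MMF. The log2 fold change was -0.93 ± 0.12 (limma adjusted p = 0.0265). Its neighbouring paralog Slc28a2b showed 59.1, 67.1 and 78.8 with LPS and 35.7, 23.9 and 33.7 with MMF (-1.12 ± 0.23, adjusted p = 0.241), and since reads can be split between such close copies the values of each are uncertain. Both were lower with MMF in every library. Gpr174 (chrX:106299484-106340375), a receptor for lysophosphatidylserine on immune cells, measured 230.2, 222 and 220.1 with LPS and 111, 127 and 115 with MMF. The groups lay far apart, and the log2 fold change was -0.93 ± 0.12 (limma adjusted p = 0.0268).

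Plin2 (chr4:86566623-86588297), which coats lipid droplets, measured 2462, 2554 and 2473 with LPS and 1871, 1601 and 1714 with MMF. This was the smallest of the named falls at -0.53 ± 0.08 (limma adjusted p = 0.0490), and both groups were tight. The call was close to the threshold and ended in edgeR (adjusted p = 0.0644). In the list of lipid droplet and efflux genes 14 were tested, with a median of -0.09. In limma 0 passed as higher and 1 as lower, against 0.0787% and 0.0437% of all genes tested. At an unadjusted p below 0.05, 2 were higher and 3 lower, and DESeq2 called 1, which was lower. Abcg1, an exporter of cholesterol, was lower in every MMF library with 1341, 1089 and 1298 against 926, 809 and 986 (-0.45 ± 0.11, adjusted p = 0.344, and 0.0446 without LPS replicate 2). Fabp5, a fatty acid binding protein, gave -0.27 ± 0.07 (adjusted p = 0.418). In contrast Ppard, a fatty acid sensing nuclear receptor, had 411, 782 and 409 with LPS and 750.0, 965 and 877 with MMF. LPS replicate 2 exceeded the lowest MMF library, and its 0.75 ± 0.22 did not pass with all libraries (adjusted p = 0.488) and passed without that library (1.06, adjusted p = 0.00501).

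In the lists of inflammatory genes that follow, no member passed with MMF in the main fit. Lower genes outside these lists, such as Gpr174 and Slc28a2, are described above. Of 15 cytokines and inflammatory enzymes, 12 chemokines, 13 activation surface molecules and 16 genes of NF-kB and its inhibitors tested, limma called 0. At an unadjusted p below 0.05 these lists had 0, 0, 1 and 2 genes above 0 and 1, 4, 1 and 0 below, and DESeq2 called 1, 1, 0 and 0, all lower. Their medians were -0.14, -0.23, -0.14 and 0.07 with all libraries. Without LPS replicate 2 they were 0.08, -0.20, 0.05 and 0.22, so the sign of the first and the third turned in that fit. There 3 chemokines passed as lower, and Nfkb2 of the NF-kB list passed as higher (0.49, limma adjusted p = 0.0491) in that fit. MMF replicate 2 stayed in it, so a shift shared by both libraries numbered 2 would remain on the MMF side only. Whether such a shift turned these signs was not tested. When limma also fitted the replicate number, which is not taken as pairing here, 1, 3, 0 and 0 members passed as lower and 0 as higher.

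Tnf measured 7323, 6371 and 6714 with LPS and 7199, 5397 and 5566 with MMF, and Il1b measured 1169, 3728 and 1376 and 1254, 2582 and 1377. Both encode early inflammatory cytokines, and in both the groups overlapped. Nos2, the inducible nitric oxide synthase, ran from 1034 to 4329 within the LPS group alone. The highest values of Il1b and Nos2 in each group were those of the libraries numbered 2. Il1rn, the antagonist of the interleukin-1 receptor, was the cytokine list member whose groups did not overlap, with 4405, 4685 and 3743 with LPS and 2816, 3425 and 2427 with MMF (-0.57 ± 0.13, adjusted p = 0.308).

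The chemokine list had its lowest values in Ccl7, Ccl2 and Ccl9. Ccl2, which attracts monocytes, measured 5925, 3257 and 4624 with LPS and 3316, 1961 and 2358 with MMF (-0.85 ± 0.22, adjusted p = 0.418). Ccl7 measured 1153, 384 and 789 and 373, 213 and 277 (-1.33 ± 0.34, adjusted p = 0.418). Ccl9 measured 2799, 3891 and 3199 and 1759, 2136 and 2146 (-0.70 ± 0.13, adjusted p = 0.110). Ccl7 and Ccl9 had every MMF library below every LPS library, while in Ccl2 the highest MMF library just exceeded LPS replicate 2. These 3 passed without that library, at adjusted p values of 0.0300, 0.00979 and 0.0446. The neutrophil-attracting Cxcl2, in contrast, gave 0.11 ± 0.13, and the macrophage chemokines Ccl3 and Ccl4 gave -0.20 ± 0.15 and -0.23 ± 0.12.

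The interferon response list had 16 of its 17 tested members below 0 and a median of -0.46, the lowest of the 21 lists, but limma called none of them. The unadjusted p was below 0.05 in 3, all lower, and DESeq2 called 0. Ifit1, an antiviral RNA-binding protein, measured 2751, 5371 and 3629 with LPS and 1347, 3297 and 2067 with MMF (-0.85 ± 0.31, adjusted p = 0.573). Rsad2, viperin, measured 2246, 3599 and 2606 and 1572, 3951 and 2370.2 (-0.17 ± 0.29). In both genes the library numbered 2 was the highest of its group, and the groups overlapped. No member had groups that did not overlap. Without LPS replicate 2, and with MMF replicate 2 kept, the median was -0.17, closer to 0, and 0 members passed in that fit too. When limma also fitted the replicate number, 9 members passed as lower and 0 as higher.

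**Figure D2:**
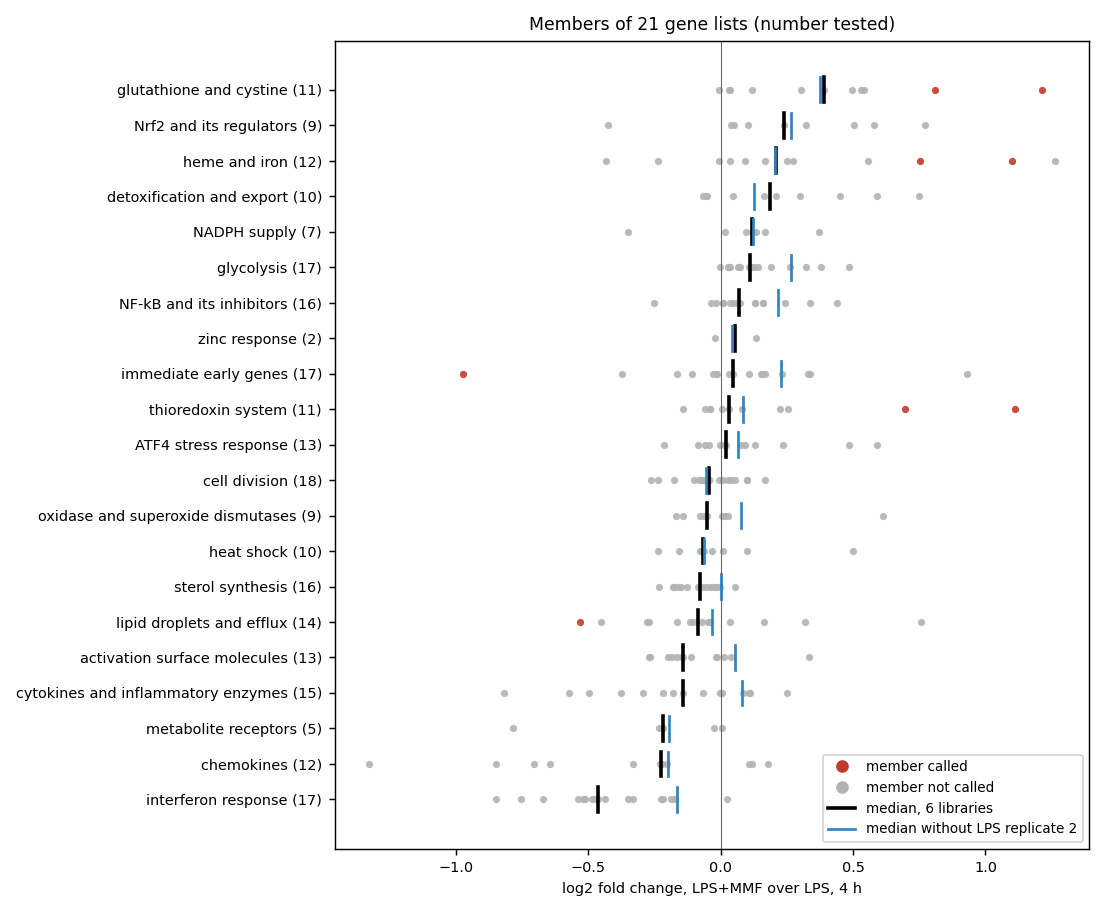
Log2 fold change of LPS with MMF over LPS alone at 4 h (horizontal) for each tested member of 21 gene lists (vertical, with the number tested); red points passed at an adjusted p below 0.05, black bars are medians over the 6 libraries and blue bars medians without LPS replicate 2. The glutathione and cystine list has the highest median at 0.39 and the interferon response the lowest at -0.46. The latter moves to -0.17 without LPS replicate 2, with MMF replicate 2 kept.

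Receptors for metabolites were tested in 5 cases and none passed (unadjusted p below 0.05 in 1, lower, which DESeq2 called). Hcar2, the receptor at which MMF acts, measured 463, 840.1 and 571 with LPS and 496, 574 and 787 with MMF. The groups overlapped fully, and the log2 fold change was 0.00 ± 0.22 with a 95% interval of -0.49 to 0.49. Gpr183, a receptor for oxysterols, was lower in every MMF library, with 494, 425 and 465 against 297, 224 and 286 (-0.78 ± 0.13, adjusted p = 0.0798, and 0.0283 without LPS replicate 2). Gpr84, a receptor for medium-chain fatty acids, gave -0.23 ± 0.15.

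The lists for sterol synthesis (16 tested), the ATF4 stress response (13), heat shock (10), the zinc response (2), the oxidase and superoxide dismutases (9), glycolysis (17 identifiers, as Aldoa has a pair) and cell division (18) had no member called by limma. Their unadjusted p values below 0.05 numbered 0, 2, 1, 0, 1, 1 and 2, and DESeq2 called 1 gene in all, Cat of the dismutase list. Their medians lay between -0.08 for sterol synthesis and 0.11 for glycolysis. Cat, catalase, which breaks down hydrogen peroxide, measured 1739.5, 1248 and 1308 with LPS and 2304, 2274 and 1937 with MMF (0.61 ± 0.13, adjusted p = 0.260). Its groups were apart. Trib3, a pseudokinase induced by ATF4, gave 0.59 ± 0.18 (adjusted p = 0.496), while Atf4 itself gave 0.08 ± 0.09. Mki67, a marker of cycling cells, was at 0.10 ± 0.09, and Mt1, a zinc-induced metallothionein, at -0.02 ± 0.09.

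Leaving out LPS replicate 2 added 49 genes to the 14, of which 32 were higher and 17 lower with MMF. MMF replicate 2 stayed in that fit. The 63 together were 0.551% of those tested, with 41 higher (0.359%) and 22 lower (0.192%). In 47 of the 49 LPS replicate 2 lay beyond the other 2 LPS libraries on the side of the MMF group. These genes were chosen as passing only without LPS replicate 2, which by itself favours such a position. The list members among them numbered 12, and in glycolysis they were Slc2a1, the main glucose transporter, and Pfkp, a phosphofructokinase. Slc2a1 measured 5439, 11624 and 6409 with LPS and 9009, 11348 and 10840.2 with MMF, with a log2 fold change of 0.48 ± 0.23 (adjusted p = 0.701) that became 0.81 without it (adjusted p = 0.0158). The largest addition was Adm, the vasodilator peptide adrenomedullin, chosen here after its values were seen. Adm measured 54.0, 278 and 119 with LPS and 191, 408 and 354 with MMF, a log2 fold change of 1.90 without LPS replicate 2 (adjusted p = 0.0446) and 1.31 with it (adjusted p = 0.60). For Adm and Slc2a1 the library numbered 2 was the highest of both groups. Cx3cr1, the fractalkine receptor and a microglia marker, was among the lower ones, with 294, 211 and 312 with LPS and 191, 140.5 and 116 with MMF (adjusted p = 0.0446 without that library and 0.344 with it). What sets LPS replicate 2 apart was not tested.

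Among genes that did not pass, the largest differences with an unadjusted p below 0.01, groups apart and a mean of 50 or more normalized counts in whichever group was higher were taken by size, 6 from 90 candidates on the higher side and 6 from 93 on the lower side. The higher ones were Slc40a1 and Fosb, already described, Rgs11, Rnf183, Tmc8 and Numbl, with log2 fold changes of 0.80 to 1.26. Rgs11, a regulator of G protein signalling, measured 192, 392 and 216 with LPS and 453, 532 and 401 with MMF (adjusted p = 0.424, and 0.00835 without LPS replicate 2). The lower ones were Ccl7 and Slc28a2b, already described, Nox1, Clec4a3, Asb2 and Ccr1, at -1.33 to -0.94. Nox1, a superoxide-producing oxidase, measured 124, 137 and 113 and 43.6, 94.6 and 35.6 (adjusted p = 0.418). Asb2, part of a ubiquitin ligase, measured 134, 149.5 and 126 and 68.4, 59.8 and 83.4 (adjusted p = 0.110). Ccr1, a chemokine receptor, measured 180.3, 314 and 275 and 94.1, 168 and 139 (adjusted p = 0.418). For these genes the separation of the groups was part of how they were chosen.

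The levels in the other groups at 4 h put the MMF values in context, with all 18 libraries of that time scaled together. Slc7a11 measured 937, 893 and 842 with DMSO alone, 2289, 2026 and 1846 with LPS, 4613, 5284 and 4368 with MMF and 12299, 14788 and 14469.8 with DMF. Hmox1 measured 3128, 3486 and 3535 with DMSO, 3424, 4558 and 3493 with LPS, 7679, 9221 and 7554 with MMF and 34924, 44575 and 47213 with DMF. In both genes the order was DMSO, LPS, MMF, DMF by the means, though in Hmox1 the DMSO and LPS libraries overlapped. Fos measured 410.3, 534 and 494 with DMSO, 470.0, 555 and 549 with LPS, 301, 293 and 213 with MMF and 113, 111 and 96.7 with DMF, so it was below the vehicle level with either fumarate. Slc28a2 was 84.7, 101 and 110.2 with DMSO, 312, 274 and 322 with LPS, 159.6, 165 and 151 with MMF and 42.1, 29.5 and 43.9 with DMF. With MMF it stayed above DMSO alone, whereas with DMF it was under it. With CBD the 13 named genes differed from LPS by -0.32 to 0.27 on the log2 scale.

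**Figure D3:**
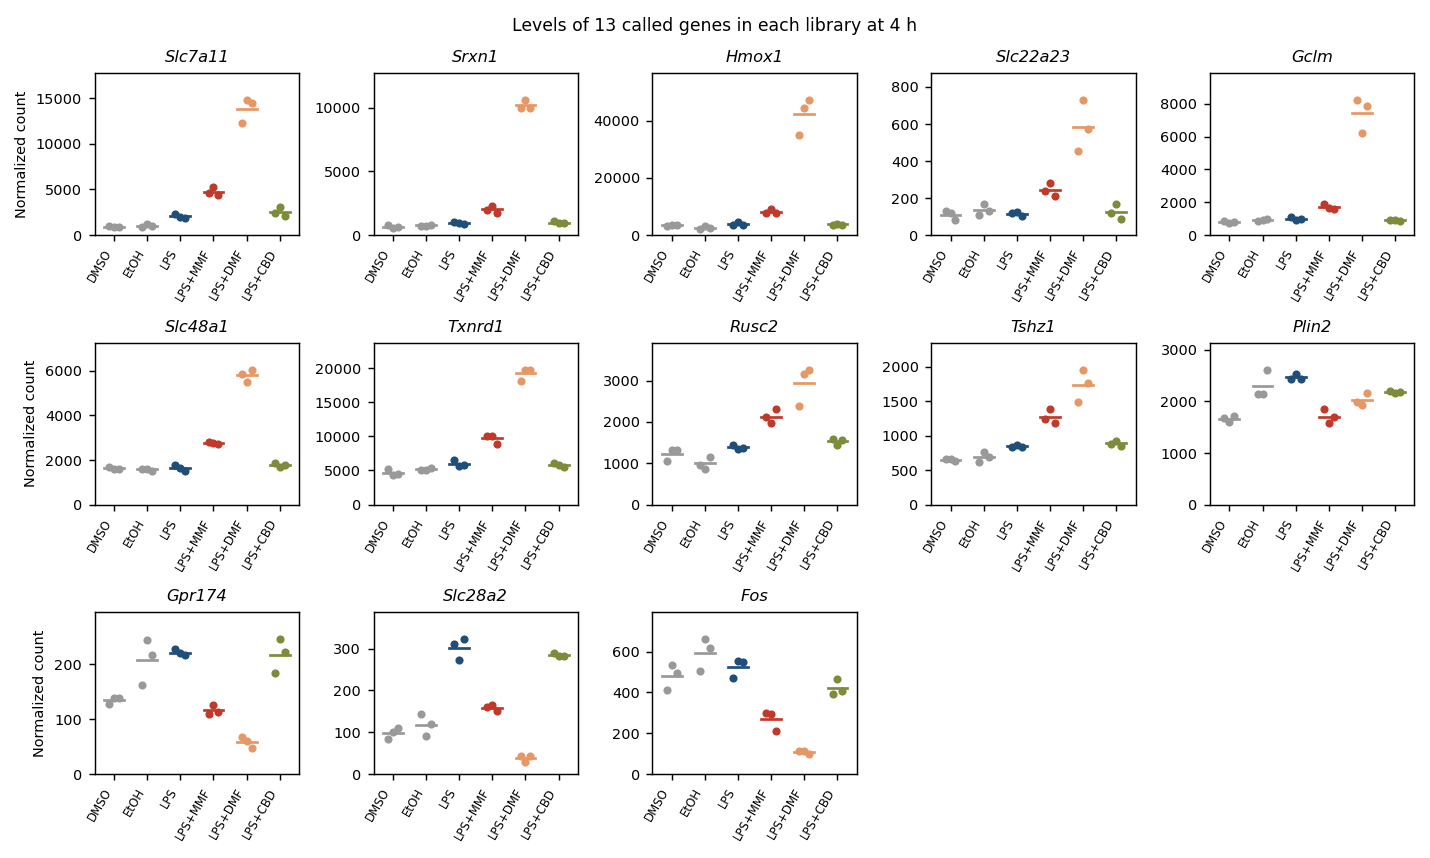
Normalized counts (vertical, from 0, 18 libraries scaled together) of 13 genes that passed in LPS with MMF against LPS, by group at 4 h (horizontal); each point is a library and each bar the mean of 3. In the first 9 panels the MMF libraries sit above the LPS libraries and the DMF means higher still; in Gpr174, Slc28a2 and Fos they sit below them with the DMF libraries lower again, and in Plin2 the DMF libraries lie between LPS and MMF.

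DMF and MMF were compared directly at the same dose of 30 µM and the same time of 4 h, as the only pair of related compounds here, with p-values adjusted over 11377 genes. This comparison uses the same MMF libraries as that with LPS, and the genes below were chosen by the latter. It gave 949 genes (8.34%), of which 383 were higher with DMF (3.37%) and 566 lower (4.97%). Leaving out MMF replicates 1, 2 or 3 gave 539, 452 and 390 genes, and leaving out DMF replicate 3 gave 310. Of the 9 genes that rose with MMF, 8 were higher again with DMF, and of the 5 that fell, 4 were lower again. Hmox1 differed most, by 2.37 ± 0.13 on the log2 scale (SE, n = 3 per group, limma adjusted p = 1.88e-05). Srxn1 differed by 2.35 ± 0.11, Gclm by 2.11 ± 0.12 and Slc7a11 by 1.54 ± 0.10, with adjusted p values of 6.73e-06, 1.88e-05 and 7.12e-05. The differences of Slc48a1 and Txnrd1 were smaller at 1.06 ± 0.08 and 0.99 ± 0.09, and that of Slc22a23 was 1.24 ± 0.18.

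Slc28a2 was lower with DMF than with MMF by the most among the fallen genes named, at -2.03 ± 0.20 (limma adjusted p = 0.000573). Fos gave -1.31 ± 0.17 (adjusted p = 0.00214) and Gpr174 -0.99 ± 0.19 (adjusted p = 0.0112). Tshz1 passed narrowly at 0.44 ± 0.11 (adjusted p = 0.0411). A difference between the compounds was not shown for Rusc2, at 0.45 ± 0.12 with a 95% interval of 0.18 to 0.73 (adjusted p = 0.0512), or for Plin2, at 0.25 ± 0.09 with an interval of 0.04 to 0.45 (adjusted p = 0.134). Each of these intervals, which are not adjusted for the number of genes, lies above 0. For Plin2, DMF against LPS alone gave -0.29 ± 0.08, on the same side as MMF and closer to 0.

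Lists differed between the compounds in both directions. Of 11 glutathione and cystine genes, 9 were higher with DMF and 0 lower, with a median difference of 1.05, where that of all genes was 0.01. Of 17 interferon response genes, 15 were lower with DMF and 0 higher, with a median of -1.57. Of the 13 cytokines and inflammatory enzymes tested here, 6 were lower and 1, Ptgs2, was higher, and of 12 chemokines 6 were lower. Hcar2, for which a difference between MMF and LPS was not shown, was lower with DMF than with MMF, at -1.75 ± 0.26 on the log2 scale (adjusted p = 0.00417). Sterol synthesis and glycolysis had 0 genes called of 16 and 17 in limma, with medians of 0.08 and 0.03. Nfe2l2, at 0.10 ± 0.09 with an interval of -0.10 to 0.30 (adjusted p = 0.537), was not shown to differ.

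At 24 h the same dose of MMF gave differences of the same sign in all 14 genes, and each was smaller in size than at 4 h. These genes were chosen at 4 h, which by itself favours a larger value there. Whether the effect of MMF differed between the times was tested as an interaction over 12 libraries. Of 11839 genes, limma called 0 (0%), with 384 at an unadjusted p below 0.05, and DESeq2 and edgeR also called 0, with 341 and 401. Slc7a11 was 0.82 ± 0.17 at 24 h against 1.21 ± 0.10 at 4 h, and the interaction was -0.39 ± 0.23 (unadjusted p = 0.108). Gclm was 0.61 ± 0.08 at 24 h, with an interaction of -0.19 ± 0.13 (unadjusted p = 0.165). For both genes a difference between the times was not shown, with 95% intervals of -0.89 to 0.10 and -0.47 to 0.09.

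Hmox1 had the widest gap of the 13 genes named as called at 4 h, with 0.21 ± 0.13 at 24 h and an interaction of -0.89 ± 0.20 (limma unadjusted p = 0.000424, adjusted p = 1.0). At 24 h it measured 5394, 7701 and 6738 with LPS and 7151, 8638 and 6990.2 with MMF, so that the groups overlapped. Fos gave -0.19 ± 0.12 at 24 h and an interaction of 0.79 ± 0.20 (unadjusted p = 0.00129), and Plin2 -0.10 ± 0.07 and 0.44 ± 0.10 (unadjusted p = 0.000617). The unadjusted p was below 0.05 in 9 of the 14 genes. None of these differences between the times passed adjustment in limma, edgeR or DESeq2 fitted without the replicate number.

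**Figure D4:**
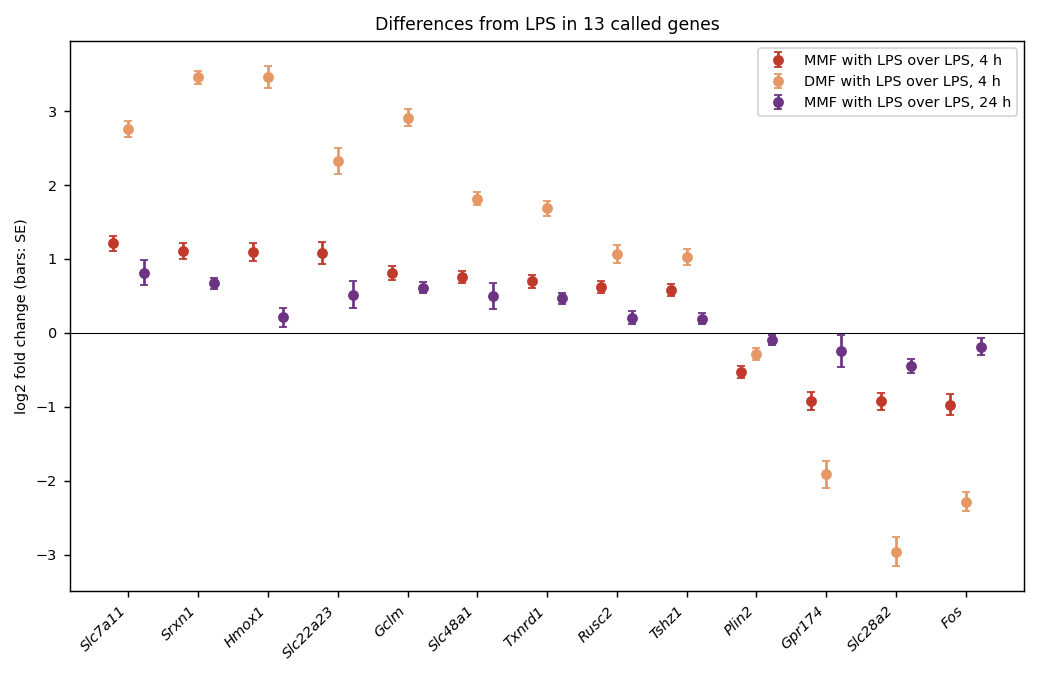
Log2 fold change over LPS alone (vertical; bars are the SE) of 13 genes (horizontal) with MMF at 4 h, DMF at 4 h and MMF at 24 h; the first 2 share their LPS libraries, and the genes were chosen by the first. For Hmox1 the values are 1.10, 3.46 and 0.21; for Plin2 MMF at 4 h lies furthest below 0.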

How the data were processed

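RNA-seq of 36 libraries of BV-2 cells was deposited as 30 tables. The submitters' processing notes name FastQC 0.12.1, cutadapt 4.4, Trimmomatic 0.39, HISAT2 2.2.1, HTSeq 2.0.3, R 4.3.1, DESeq2 1.40.2 and GRCm39. The authors deposited a normalized signal per gene and library (counts divided by DESeq2 size factors over the 6 libraries of a table), beside their own fold changes and p-values, which were not used. Of the tables, 9 were read and 21 were not. All 930468 values read came within 0.01 of whole reads after rescaling (100%), which gave the depth of each library and the counts for edgeR and DESeq2.

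Main tests used limma 3.58.1 in R 4.3.3 on log2 of the normalized count plus 1, with the genes, libraries and threshold given above and Benjamini-Hochberg adjustment, and fold changes are on that scale, which understates changes of low genes. Unless another tool is named, each adjusted p is from limma. edgeR 4.0.16 (quasi-likelihood) and DESeq2 1.42.0 on the recovered reads, other pseudocounts, filters and scaling, a replicate block and leaving out each library were alternatives. The scripts were tested on simulated data. Members and gene lists were chosen with earlier results of these data known. Named genes were all those called, plus the 6 largest differences per direction among uncalled genes with an unadjusted p below 0.01, groups apart and a mean of 50 or more in whichever group was higher. The text also names list members. For 1 gene to which the rule applies, values are not reported here. Gene positions are those deposited (GRCm39), and promoters were read from GRCm39 with the GENCODE vM39 annotation. Figures were drawn with matplotlib 3.10.9.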

Additional observations from a re-analysis of the deposited data

How the results depend on the processing

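For MMF with LPS against LPS at 4 h, where 14 genes were called, limma with a larger or smaller pseudocount, no filter or a stricter one, a limit on the size of the change, or TMM scaling gave 12 to 14 genes, and edgeR gave 13. The calls of named genes lost were Plin2 with edgeR (adjusted p = 0.0644), TMM scaling (0.0501) and the stricter filter (0.0514), and Fos with the stricter filter (0.0514). DESeq2 called 51 (25 higher, 26 lower), the 14 among them, and a limma fit over all 18 libraries at 4 h called 28 (15 higher, 13 lower), with 13 of the 14 among them. Leaving out a library gave 1 to 63 genes, and 5 of these 6 fits gave fewer than 14. For DMF against MMF, where 949 genes were called, the tools, filter, pseudocount, scaling and size limit tried gave 677 to 1205, the lowest being the size limit, and leaving out a library gave 310 to 1234. For the effect of time, 0 genes were called by limma, edgeR and DESeq2 and in each fit without a library. The direction of the 25 genes named by rule held under each alternative run, and apart from the fit over 18 libraries 57 of their values lost the call and 31 gained it. The cause of these differences was not tested.

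The replicate numbers were not taken as pairing. Deviations from the group means, over 9913 genes, correlated at 0.576, 0.412 and 0.0809 between LPS and MMF libraries of the same number, and MMF replicate 3 correlated best with LPS replicate 2 (0.12). Same-numbered DMF and MMF libraries gave 0.278, 0.621 and 0.0418, while the 24 h pairs of LPS and MMF gave 0.428, 0.680 and 0.331. With the number as a replicate block, limma called 179 genes (76 higher, 103 lower) for MMF against LPS, the 14 among them, 1740 for DMF against MMF and 5 for the effect of time (3 higher, 2 lower). In that fit 9 of the 17 interferon response genes, 3 chemokines and 1 cytokine list gene were lower with MMF. Chosen after seeing the data, edgeR and DESeq2 with the same block called 154 and 147 genes for MMF against LPS, and 1780 and 1268 for DMF against MMF.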
